A study of Rattus norvegicus with 3 samples.

Results

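The genes described here encode CC chemokines, small secreted proteins that guide leukocytes, and their receptors. The set has 8 members, the ligands Ccl2, Ccl3, Ccl4, Ccl5, Ccl6 and Ccl24 and the receptors Ccr1 and Ccr2, taken by gene name from the 3 deposited tables of clusters. These tables list 20896 genes in all, and 7 of the 8 members are among them. Ccr2 is not listed by that name and was not analysed here.

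The study examined miR-330 in osteoarthritis of the rat temporomandibular joint brought on by a unilateral anterior crossbite (UAC). Single-cell RNA libraries were made from cartilage and subchondral bone of 24 SD rats kept in an SPF environment, in 3 groups of 8. One group had no UAC and received Vector AAV (sham), another had UAC and Vector AAV (UAC), and the last had UAC and miR-330 AAV (UAC + miR-330). Every rat thus carried an AAV injected into the temporomandibular joint, and the methods give 8 weeks for the rats with AAV. The age of the rats is not given in the sources used here, and the 2 libraries with UAC bear the same treatment label, so the library titled as the treatment group was taken as the one with miR-330. Each library pooled the 16 condyles of its group, which leaves 1 library per condition and no way to tell its rats apart.

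CC chemokines are released by macrophages, lymphocytes, granulocytes and stromal cells and bind receptors coupled to inhibitory G proteins on the cells they attract. In joints they are known for drawing monocytes, neutrophils and lymphocytes out of the blood, and some also act on osteoclast precursors. A chemokine usually binds several receptors and a receptor several chemokines, so the family works as an overlapping network.

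Levels are given in CPM, a gene's UMIs (unique molecular identifiers, each a captured RNA molecule) for every 1000000 found in a cluster or a whole library. Brackets hold exact Poisson 95% intervals. The sham library held 77668015 UMIs in 15 clusters, the UAC library 92629658 in 18 and the UAC + miR-330 library 97255383 in 19. Intervals cover counting error only, not differences between rats or preparations. Changes are log2 ratios of CPM with 0.5 UMI added to each count, and a change was counted from 2-fold on when both libraries together held at least 50 UMIs. The tables hold sums over clusters, so cell barcodes could not be compared, doublets were not treated, and fewer cells of a type cannot be told apart from less RNA per cell.

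Clusters were named from 183 markers of 18 cell types. The macrophage-marker cluster was number 15 in the sham library, 9 in UAC and 10 in UAC + miR-330, with 13 of 14 macrophage markers enriched in each and 4.36%, 6.33% and 6.16% of UMIs. Neutrophil clusters were 8 and 10 in sham, 7, 8 and 12 in UAC, and 6, 9 and 15 in UAC + miR-330, so different clusters hold this class in each library. A cluster with all 13 T or NK markers enriched was found in UAC (17) and UAC + miR-330 (19) and none was named so in sham. Dendritic clusters, UAC 14 and UAC + miR-330 8, rest on 5 and 3 of 12 markers. Cxcr5, Fcer2 and Fcrl5, genes typical of B cells, were among the leading 10 genes of both, where Siglech in UAC was the only dendritic marker, so the name is weak. Of the cell types in the labels, chondrocytes had a cluster in each library (12, 16 and 17), and osteoclast markers named none. Clusters without a name held 53.1% of UMIs in sham, 20.1% in UAC and 24.5% in UAC + miR-330.

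The members differed in where they were highest among these clusters. Ccl2 and Ccl24 were highest in the macrophage-marker cluster of each library. In UAC the lead of Ccl24, from 12 UMIs, was within counting error of the next cluster. Ccl6 and Ccr1 were highest in a neutrophil cluster of each library, and Ccl4 and Ccl5 in the T or NK cluster where one was named. Ccl3 was spread over macrophage-marker, neutrophil and T or NK clusters and those with the weak dendritic name. B clusters, which are not a known source of Ccl2 or Ccl24, served for these as the background that free RNA can give. For the other members B levels are given for comparison only. There free RNA could not be told apart from RNA of the B cells, and Ccl6 ran from 8.32 to 95.7 CPM over the B clusters of UAC.

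**Figure D1:**
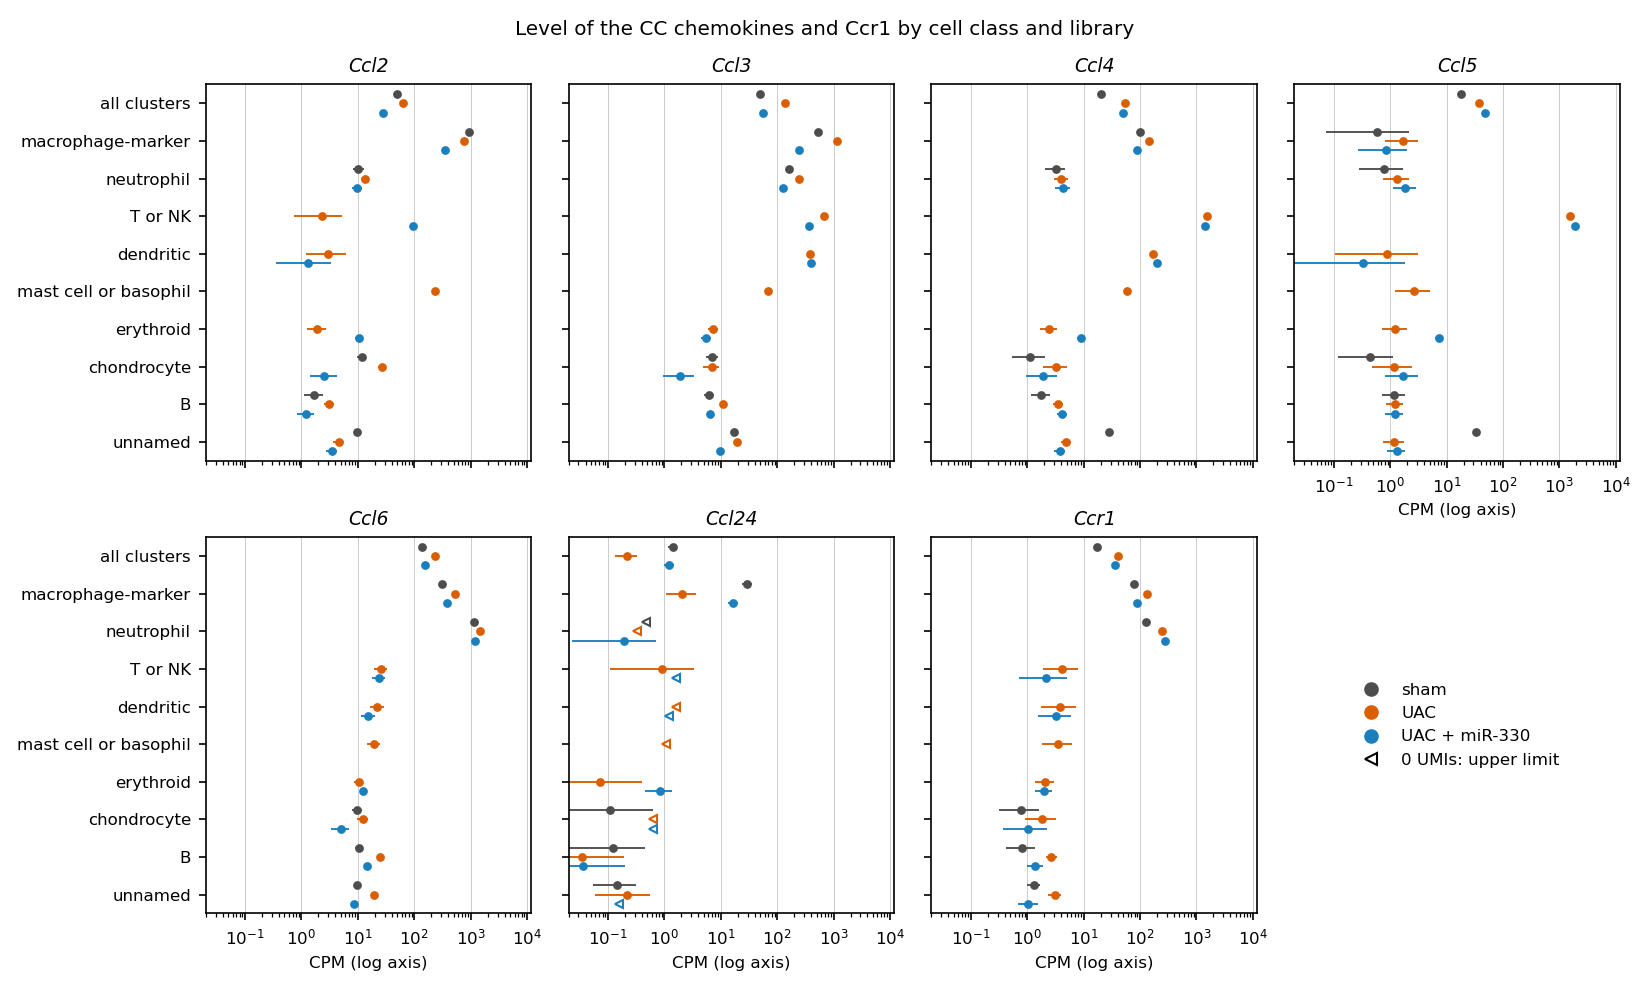
CPM of the 7 listed members by cell class (rows) and library (colours) on a log axis, with exact Poisson 95% intervals. Open triangles are upper limits of classes with 0 UMIs, and a class that was not named in a library has no point.

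Ccl2, which attracts monocytes, was at 48.7 (47.2 to 50.3) CPM over all clusters of the sham library and at 63.2 (61.6 to 64.8) and 28.4 (27.3 to 29.5) in UAC and UAC + miR-330. In the macrophage-marker cluster the levels were 938 (906 to 971), 771 (749 to 794) and 353 (338 to 368) CPM. The order of the libraries thus differed between the whole tissue, where UAC was highest, and this cluster, where sham was. From sham to UAC the log2 ratio of Ccl2 was 0.38 (0.32 to 0.43) over all clusters and −0.28 (−0.35 to −0.22) in the macrophage-marker cluster. With miR-330 the cluster was at −1.13 (−1.20 to −1.05) against UAC and at −1.41 (−1.49 to −1.33) against sham, so its Ccl2 lay below both other libraries. With deposited mean counts both fell short of 2-fold, at −0.89 and −0.98. The step from UAC to UAC + miR-330 over all clusters, −1.15, did so as well, at −0.92. This cluster held 83.9%, 77.4% and 76.6% of all Ccl2 UMIs. B clusters had medians of 1.98, 3.25 and 1.17 CPM.

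Outside the macrophage-marker cluster, Ccl2 came next in clusters with mast cell markers in sham and UAC. Sham cluster 14, an unnamed cluster with erythroid and mast cell markers, was at 201 (180 to 225) CPM, and UAC cluster 13, named mast cell or basophil, at 233 (217 to 250). In UAC + miR-330 the cluster with the most mast cell marker UMIs was number 18, and there Ccl2 was at 4.59 (2.63 to 7.46) CPM. That cluster was unnamed, with 8 of 12 mast cell markers and 6 early granulocyte markers enriched. Its leading 10 genes held Defa11, Prtn3, Elane and Np4 as well as Prss34 and AC098959.1, which are among those of UAC cluster 13 too, so it may be mixed. Next after the macrophage-marker cluster in this library was T or NK cluster 19. Summed mast cell markers were at 7571, 13557 and 10283 CPM in these 3 clusters, with Mcpt10 the most abundant. Macrophage markers summed to 766, 557 and 121 CPM in the same clusters, so they were lowest where Ccl2 was. The part of either marker set in the Ccl2 level was not tested.

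The T or NK clusters differed in Ccl2 as well. It had 5 UMIs in UAC cluster 17 and 224 in UAC + miR-330 cluster 19, or 2.28 (0.741 to 5.33) against 96.5 (84.3 to 110.1) CPM, a log2 ratio of 5.27 (4.16 to 7.04). Ccl2 was therefore near its B background in the first and well above it in the second. Mast cell markers in these clusters summed to 32.0 and 2193 CPM, with Mcpt10 and Cpa3 the most abundant. Of the 9 mast cell markers listed, Fcer1a and Tpsab1 were at 0 in UAC cluster 17 and none was at 0 in cluster 19. Macrophage markers were alike, at 47.9 and 49.6 CPM, with C1qc, Cd163 and F13a1 at 0 in both and Ctss the most abundant. What the mast cell markers add to Ccl2 there was not tested.

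The chondrocyte clusters also had 9, 10 and 10 osteogenic markers enriched, so their values are not those of chondrocytes alone. Ccl2 there was at 11.6 (9.52 to 14.1) CPM in sham, against 26.9 in UAC and 2.55 in UAC + miR-330. The log2 ratio was 1.21 (0.85 to 1.58) from sham to UAC and −2.15 (−3.08 to −1.40) from sham to UAC + miR-330, and the last level, from 15 UMIs, lay within the range of its B clusters (0.727 to 2.96 CPM). Neutrophil markers moved the same way in these clusters, with sums of 1264, 4404 and 871 CPM, S100a9 or S100a8 the most abundant and 11, 12 and 11 of 12 markers above 0. Macrophage markers summed to 117, 143 and 135 CPM there. The part of both marker sets in the chondrocyte values was not tested. Ccl3 at 6.86 and 1.87 CPM and Ccl6 at 12.2 and 4.93 CPM in the chondrocyte clusters of UAC and UAC + miR-330 lay below the medians of the B clusters.

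Erythroid clusters differed in Ccl2 as well. It was at 1.89 (1.23 to 2.77) CPM in UAC cluster 11 and at 37.4 (30.6 to 45.2) and 5.35 (4.26 to 6.64) in UAC + miR-330 clusters 5 and 11. The direction depended on naming, because summed erythroid markers were higher in UAC cluster 13 (10200 CPM) than in cluster 11 (2757 CPM), and Ccl2 was at 233 CPM in that cluster 13. The higher of these, cluster 5, also held macrophage markers at 921 CPM (14 of 14 above 0, C1qa the most abundant) against 50.3 in its cluster 11 and 34.2 in UAC cluster 11. Ccl4 at 38.4 (31.6 to 46.4) CPM and Ccl24 with 13 UMIs stood out in cluster 5 too. Ccl5 was at 12.3 CPM in cluster 5 and 6.53 in cluster 11 of UAC + miR-330, where B clusters reached at most 2.97 CPM. In that library Ccl5 was at 0.835 CPM in the macrophage-marker cluster and at 1918 CPM in the T or NK cluster. The part of the macrophage markers in the Ccl2, Ccl4 and Ccl24 values was not tested, nor that of T or NK cells in Ccl5.

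Ccl3, a ligand of Ccr1 made by activated myeloid and lymphoid cells, had a level over all clusters of 50.3 (48.7 to 51.9) CPM in sham, 140.4 (138 to 143) in UAC and 55.3 (53.9 to 56.8) in UAC + miR-330. Sham and UAC + miR-330 lay close together and UAC stood well above them. The log2 ratios were 1.48 (1.43 to 1.53) from sham to UAC, −1.34 (−1.39 to −1.30) from UAC to UAC + miR-330, and 0.14 (0.08 to 0.20) from sham to UAC + miR-330. Within the macrophage-marker cluster the last comparison gave −1.08 (−1.18 to −0.98), from 521 to 246 CPM, and −0.65 with deposited mean counts. Without this cluster the fall of Ccl3 from UAC to UAC + miR-330 was −0.75, short of 2-fold. The near equality over the whole tissue therefore did not hold in this cluster. Its share of all Ccl3 UMIs was 45.2% in sham, 52.0% in UAC and 27.4% in UAC + miR-330.

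The ranking of clusters by Ccl3 changed between libraries. In sham it was highest in the macrophage-marker cluster at 521 (497 to 546) CPM, followed by neutrophil cluster 8 at 409 (386 to 432). In UAC the macrophage-marker cluster at 1153 (1126 to 1181) came before neutrophil cluster 8 at 967 (927 to 1009), the T or NK cluster at 688 (654 to 724) and cluster 14 at 383 (358 to 409). In UAC + miR-330 neutrophil cluster 6 led at 467 (440.2 to 495) CPM, and cluster 8 at 398 (376 to 420.4) and the T or NK cluster at 368 (343 to 393) did not differ beyond counting error. The macrophage-marker cluster came only after these at 246 (234 to 259). B clusters were far lower, with medians of 7.47, 9.83 and 4.14 CPM.

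The fall of Ccl3 with miR-330 was not of one size in all clusters that express it. From UAC to UAC + miR-330 the log2 ratio was −2.23 (−2.31 to −2.15) in the macrophage-marker cluster and −0.90 (−1.03 to −0.78) in the T or NK cluster. Neutrophil markers in the T or NK clusters summed to 4180 and 1533 CPM, and their part in this ratio was not tested. The neutrophil clusters together gave −0.95 (−1.05 to −0.86), from 243 (234 to 253) to 126 (119 to 133) CPM. No ratio is given for UAC cluster 14 and UAC + miR-330 cluster 8, which may differ in cells, because the latter was named from 3 of 12 dendritic markers with none among its leading 10 genes. Summed dendritic markers were at 1334 CPM there, 1772 in unnamed cluster 14 of the same library and 1939 in UAC cluster 14. Ccl3 was at 27.5 CPM in cluster 14 of UAC + miR-330. Sham neutrophil clusters were at 164 (155 to 174) CPM.

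Because neutrophil clusters differ between libraries, the 1 cluster led by interferon genes such as Ifit1bl was also compared alone, cluster 8 in sham and UAC and cluster 6 in UAC + miR-330. Ccl3 was there at 409, 967 and 467 CPM, with log2 ratios of 1.24 (1.14 to 1.35) from sham to UAC and −1.05 (−1.16 to −0.95) from UAC to UAC + miR-330. These clusters may not hold the same cells, because sham cluster 8 also had Retnlg among its leading 10 genes while UAC and UAC + miR-330 had separate clusters, 7 and 15, with that gene. Joined with those, a grouping chosen after seeing the data, Ccl3 was at 409 (386 to 432), 411 (396 to 427) and 272 (257 to 288) CPM. The log2 ratios became 0.01 (−0.09 to 0.11) and −0.59 (−0.69 to −0.50), so neither step reached 2-fold. Il1b, a cytokine gene read in the same cluster after its values were seen, was at 1175, 2158 and 2213 CPM, so it did not fall with miR-330 there, nor with the clusters joined (1175, 979 and 1400 CPM).

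Ccl4, an attractant of lymphocytes and monocytes and the neighbour of Ccl3 on the chromosome, was at 19.9 (18.9 to 20.9) CPM over all clusters in sham, 54.4 (52.9 to 56.0) in UAC and 49.9 (48.5 to 51.3) in UAC + miR-330. The log2 ratio from UAC to UAC + miR-330 was −0.13 (−0.18 to −0.07), and it turned to 0.11 with deposited mean counts in place of CPM. Against sham, UAC + miR-330 was at 1.32 (1.24 to 1.41). Ccl4 thus kept its higher level in the library in which Ccl3 was back near sham. In the macrophage-marker cluster it was at 101 (90.9 to 113), 143 (134 to 153) and 86.9 (79.6 to 94.7) CPM, the same order of libraries as Ccl3 with smaller steps. The comparison of UAC + miR-330 with sham in this cluster, −0.22 (−0.42 to −0.02), turned to 0.21 with deposited mean counts.

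The T or NK cluster held most of the Ccl4, 65.7% of its UMIs in UAC and 67.7% in UAC + miR-330, at 1512 (1461 to 1565) and 1415 (1367 to 1465) CPM. The log2 ratio was −0.10 (−0.17 to −0.03), smaller than the shift of 0.24 that deposited mean counts give in this comparison, so its direction depended on the scaling. Next in UAC came cluster 14 at 171 (154 to 188) and the macrophage-marker cluster at 143, and in UAC + miR-330 cluster 8 at 202 (186 to 219) and the macrophage-marker cluster at 86.9. In sham the highest level was 152 (142 to 162) CPM in cluster 1, with 61.3% of Ccl4 UMIs. That cluster has no name, since 7 of 13 T or NK markers are enriched there but 0 reach 50 CPM, while 5 markers of B cells do. B clusters had Ccl4 medians of 1.65, 3.46 and 1.91 CPM.

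Ccl3 and Ccl4 were used in different proportions by different cells. In the neutrophil cluster led by Ifit1bl, Ccl3 made up 99.8% (99.3 to 99.95) of the UMIs of both genes in sham, 99.4% (98.9 to 99.6) in UAC and 98.2% (97.2 to 98.9) in UAC + miR-330. The macrophage-marker cluster was at 83.7% (82.1 to 85.3), 88.9% (88.2 to 89.6) and 73.9% (71.9 to 75.8). Neutrophils of this kind thus held almost no Ccl4, and the macrophage-marker share was lowest with miR-330. The T or NK clusters stood at the other end, with 31.3% (30.0 to 32.6) in UAC and 20.6% (19.4 to 21.9) in UAC + miR-330, and sham cluster 1 was at 27.3% (24.9 to 29.8). UAC cluster 14 and UAC + miR-330 cluster 8 were in between at 69.2% (66.5 to 71.7) and 66.3% (64.1 to 68.5). B clusters with at least 50 UMIs of both genes ran from 67.7% to 78.3% in UAC and were at 67.9% and 59.6% in UAC + miR-330.

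**Figure D2:**
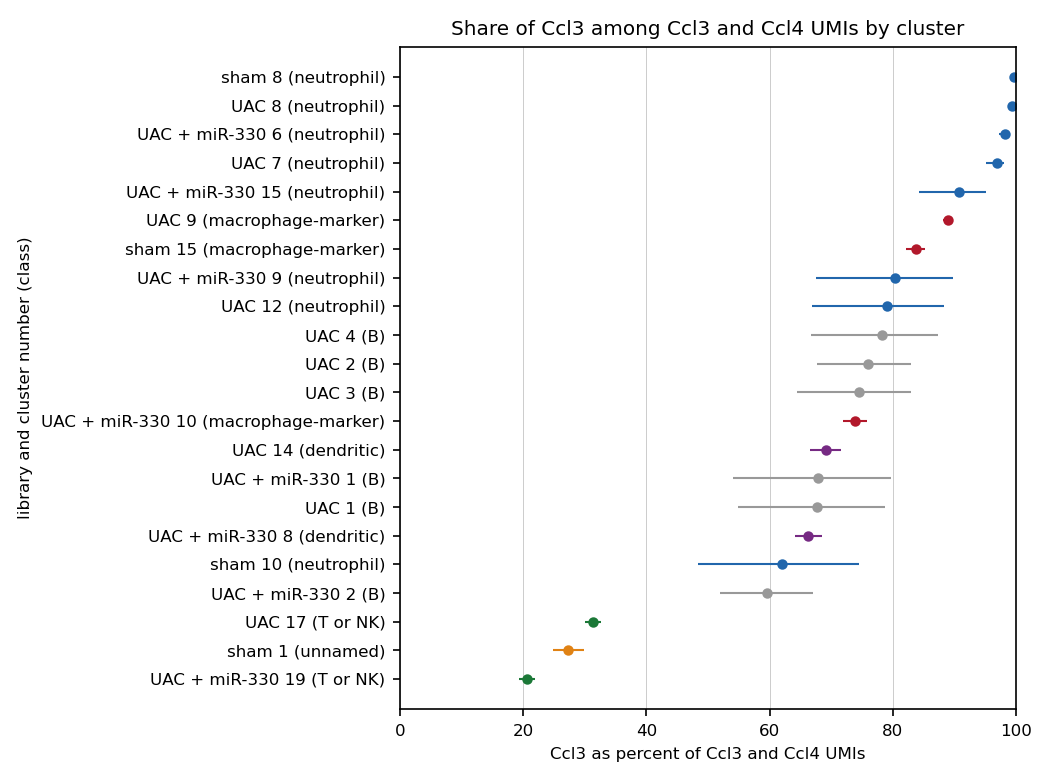
Ccl3 as a percent of the UMIs of Ccl3 and Ccl4 in each named cluster of 5 classes and in sham cluster 1, for clusters with at least 50 UMIs of both genes, with exact binomial 95% intervals. Colours mark the class.

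Ccl5, a ligand of Ccr1 and Ccr3 typical of T and NK cells, had 17.9 (17.0 to 18.9) CPM over all clusters in sham, 37.7 (36.4 to 38.9) in UAC and 48.2 (46.8 to 49.6) in UAC + miR-330. It rose at each step, by log2 ratios of 1.07 (0.98 to 1.16) and 0.35 (0.29 to 0.42), and among the 6 ligands of the set only it and Ccl24 were higher in CPM with miR-330 than in UAC. The T or NK clusters were at 1539 (1487 to 1592) CPM in UAC and 1918 (1862 to 1975) in UAC + miR-330 and held 96.6% and 95.004% of all Ccl5 UMIs. In sham, cluster 1 at 178 (168 to 189) CPM held 79.8% and unnamed cluster 11 at 45.4 (38.9 to 52.7) held 12.4%. The macrophage-marker cluster had 2, 10 and 5 UMIs of Ccl5, as low as B clusters, whose medians were 0.598, 1.09 and 1.27 CPM. Ccl5 was also among the 10 leading genes of sham cluster 1, UAC cluster 17 and UAC + miR-330 cluster 19.

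T or NK markers were read beside Ccl4 and Ccl5. All 13 were above 0 in each library, and they summed to 123, 190.1 and 173 CPM over all clusters, with Nkg7 the most abundant. Per 1000 UMIs of these markers, Ccl4 had 162 (154 to 170.5) UMIs in sham, 286 (278 to 294) in UAC and 289 (281 to 297) in UAC + miR-330, and Ccl5 had 146 (138 to 154), 198 (192 to 205) and 279 (271 to 287). Relative to the markers, Ccl4 was level between the UAC libraries and Ccl5 still rose at each step. The part of T or NK cell numbers in both genes was not tested.

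Ccl6, a rodent CC chemokine that binds Ccr1, was the most abundant member, at 136 (133 to 138) CPM over all clusters in sham, 230.1 (227 to 233) in UAC and 158 (156 to 161) in UAC + miR-330. The log2 ratios were 0.76 (0.73 to 0.79) from sham to UAC and −0.54 (−0.57 to −0.51) from UAC to UAC + miR-330. UAC was highest, and no step reached 2-fold. The first became 1.29, past 2-fold, when the neutrophil clusters and all clusters with at least 3 early granulocyte markers enriched were left out. The latter were sham 14, UAC 13 (named mast cell or basophil) and 18, and UAC + miR-330 18. Neutrophil clusters held 83.8%, 78.6% and 78.9% of its UMIs, and the single cluster led by Ifit1bl held 83.05%, 72.0% and 76.2%. Ccl6 reached 2873 (2813 to 2933) CPM there in sham, 6937 (6827 to 7047) in UAC and 4803 (4717 to 4891) in UAC + miR-330, with log2 ratios of 1.27 (1.23 to 1.31) from sham to UAC and −0.53 (−0.56 to −0.50) from UAC to UAC + miR-330. Joined with the Retnlg clusters, as chosen after seeing the data, UAC was at 2515 (2477 to 2553) and UAC + miR-330 at 2621 (2574 to 2668) CPM, and the ratio from sham to UAC turned to −0.19 (−0.23 to −0.15). The rise therefore depended on which clusters were set side by side, and over all neutrophil clusters Ccl6 was at 1133 (1109 to 1156), 1467 (1445 to 1490) and 1173 (1153 to 1194) CPM.

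The macrophage-marker cluster came next for Ccl6, at 310 (291 to 329), 531 (513 to 550.2) and 383 (367 to 399) CPM, with the same order of libraries. B clusters of UAC reached 95.7 CPM of Ccl6 against at most 22.6 in sham and 36.4 in UAC + miR-330. Neutrophil markers summed to 41399, 64032 and 45037 CPM over all clusters, with S100a9 the most abundant and 12 of 12 above 0 in each library. Per 1000 UMIs of these markers, Ccl6 had 3.28 (3.22 to 3.34), 3.59 (3.55 to 3.64) and 3.51 (3.45 to 3.57) UMIs. The part of neutrophil numbers in the change of Ccl6 was not tested.

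Ccl24, an eotaxin that attracts eosinophils through Ccr3, was the rarest member, with 109 UMIs in sham, 20 in UAC and 118 in UAC + miR-330. That is 1.40 (1.15 to 1.69), 0.216 (0.132 to 0.333) and 1.21 (1.00 to 1.45) CPM. It alone of the 7 listed members fell from sham to UAC over all clusters. Besides it, only Ccl5 rose in CPM from UAC to UAC + miR-330. Ccl24 was thus lowest in UAC and alike in the other libraries. Its log2 ratio of −0.21 (−0.60 to 0.18) from sham to UAC + miR-330 turned to 0.22 with deposited mean counts. In the macrophage-marker cluster it was at 29.5 (24.0 to 35.9), 2.05 (1.06 to 3.57) and 16.7 (13.6 to 20.3) CPM. UAC + miR-330 stayed below sham there, at −0.82 (−1.24 to −0.41). Outside this cluster under 50 UMIs remained in each pair of libraries, too few for a ratio. The cluster held 91.7%, 60% and 84.7% of its UMIs, the last 2 shares resting on 12 and 100 UMIs. Neutrophil clusters had 0, 0 and 2 UMIs.

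Genes of resident macrophages moved with Ccl24 between sham and UAC. In the macrophage-marker cluster the 12 listed genes of a resident macrophage list summed to 2446, 654 and 831 CPM, with C1qa the most abundant and none at 0. From sham to UAC 11 of 12 were at least 2-fold lower, where 3.1% of all genes were, with a median log2 ratio of −2.06 beside −0.06. Of the 6 with enough UMIs that are not among the macrophage markers 6 were 2-fold lower, beside the same 3.1%, with a median of −2.67. From UAC to UAC + miR-330 2 of the 12 were at least 2-fold higher, where 3.32% of all genes were, with a median of 0.34 beside 0.18 for all genes. Ccl24 rose far more in this step than the list. Classical monocyte genes stayed near the median of all genes, at 0.14 and 0.16 for the 2 steps, and summed to 3843, 4545 and 4843 CPM with Fn1 the most abundant. Of 5 resident macrophage genes with enough UMIs in the neutrophil clusters, 4 were at least 2-fold lower from sham to UAC. The share of all genes there was 4.76%. What these lists contribute to Ccl24 was not tested.

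Mast cell markers also fell in the macrophage-marker cluster, from 638 CPM in sham to 14.0 in UAC and 10.0 in UAC + miR-330. Mcpt10 was the most abundant and 9, 8 and 7 of 9 listed markers were above 0, with Tpsab1 at 0 in the libraries with UAC and Fcer1a at 0 with miR-330. They did not return with miR-330, unlike Ccl24. In the neutrophil clusters mast cell markers were at 207, 12.7 and 11.2 CPM. Erythroid markers moved with them in the macrophage-marker cluster, at 1185, 73.8 and 75.8 CPM. Of these, 11 of 11 were above 0 in each library, with Hba-a1 the most abundant. Dendritic markers were lowest in UAC in the macrophage-marker cluster, at 593, 376 and 557 CPM, with Tcf4 the most abundant. Summed macrophage markers in this cluster were at 3414, 2260.2 and 2152 CPM, and over all clusters at 228, 219 and 222 CPM. Per 1000 macrophage marker UMIs over all clusters, Ccl2 had 214 (207 to 221), 288 (281 to 296) and 128 (123 to 133) UMIs, and Ccl3 had 221 (214 to 228), 641 (630.1 to 652) and 249 (243 to 256). Over all clusters both ligands thus changed more than the markers did. In the macrophage-marker cluster, from sham to UAC, Ccl2 fell less than the summed markers, from 938 to 771 CPM. The part of the marker changes in the ligands was not tested.

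Ccr1, the receptor that Ccl3, Ccl5 and Ccl6 share, was at 17.2 (16.3 to 18.1) CPM over all clusters in sham, 40.5 (39.2 to 41.8) in UAC and 36.1 (34.9 to 37.3) in UAC + miR-330. The log2 ratio was 1.24 (1.15 to 1.33) from sham to UAC and 1.07 (0.98 to 1.16) from sham to UAC + miR-330. Between the libraries with UAC it was −0.17 (−0.23 to −0.10) and turned to 0.07 with deposited mean counts. The receptor thus stayed near its UAC level where Ccl3 and Ccl6 were lower. Against sham it fell short of 2-fold with size factors from the median of ratios, at 0.96, and without the clusters left out for Ccl6 above, at 0.64.

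Neutrophil clusters held 74.6%, 73.8% and 81.8% of Ccr1 UMIs, at 127 (120 to 136), 243 (234 to 252) and 278 (268 to 288) CPM. Against sham UAC was at 0.93 (0.82 to 1.04) and UAC + miR-330 at 1.12 (1.02 to 1.23), which became 0.88 with size factors from the median of ratios, and the step between them, 0.20 (0.12 to 0.27), turned to −0.05 with the same factors. In the cluster led by Ifit1bl the levels were 273 (255 to 293), 473 (445 to 503) and 536 (508 to 566) CPM. Joined with the Retnlg clusters, as chosen after seeing the data, UAC was at 382 (367 to 397) and UAC + miR-330 at 477 (457 to 497). Cluster 7 of UAC at 337 (320 to 354) and cluster 15 of UAC + miR-330 at 411 (384 to 438), neutrophil clusters with Mmp9 and Retnlg among their leading genes, came second, and no sham cluster had both genes among its leading 10. Sham cluster 10 was at 33.7 (28.7 to 39.3) CPM. The macrophage-marker cluster was at 78.3 (69.1 to 88.3), 133 (124 to 143) and 86.9 (79.6 to 94.7), highest in UAC. Per 1000 neutrophil marker UMIs, Ccr1 had 0.415 (0.393 to 0.437), 0.633 (0.613 to 0.653) and 0.802 (0.775 to 0.829) UMIs, a rise at each step whose link to neutrophil numbers was not tested.

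The members were also counted together. From sham to UAC over all clusters 4 of 7 (Ccl3, Ccl4, Ccl5 and Ccr1) were at least 2-fold higher and 1 (Ccl24) lower, where 2.41% of 14235 genes were higher and 1.92% lower. Their median log2 ratio was 1.07 beside −0.02 for all genes. Of 6 with enough UMIs in the macrophage-marker cluster 1 (Ccl3) was higher and 1 (Ccl24) lower, where 0.885% of genes were higher and 3.1% lower, with medians of 0.63 and −0.06. The neutrophil clusters had 0 of 5 past 2-fold in either direction, where 0.472% of genes were higher and 4.76% lower, with medians of 0.39 and −0.04. With deposited mean counts Ccr1 was past 2-fold higher there. Whether these numbers differ from those of all genes was not tested.

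From UAC to UAC + miR-330, 5 of 7 members were lower and 2 higher over all clusters, whatever the fold. Of these 5, Ccl4 and Ccr1 turned to higher with deposited mean counts. Over all clusters 2 of 7 (Ccl2 and Ccl3) were at least 2-fold lower and 1 (Ccl24) higher, where 0.932% of genes were lower and 2.41% higher. The macrophage-marker cluster gave the same 3 genes of 6, where 0.87% of genes were lower and 3.32% higher. With deposited mean counts Ccl2 fell short of 2-fold in both scopes, and Ccl3 and Ccl24 remained. In the neutrophil clusters 0 of 5 passed 2-fold, where 0.551% of genes were lower and 4.46% higher. With size factors from the median of ratios Ccl3 was past 2-fold lower there. The medians of the members were −0.17, −0.67 and −0.32 in these 3 scopes beside 0.13, 0.18 and 0.27 for all genes. In CPM the median of all genes was thus shifted upward in this comparison. With size factors from the median of ratios it was at −0.003, 0.05 and 0.02. The median of the members lay below that of all genes in each scope, while Ccl24 lay above the latter where it had enough UMIs, and Ccl5 over all clusters (0.35).

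Set against sham, the UAC + miR-330 library had 3 of 7 members (Ccl4, Ccl5 and Ccr1) at least 2-fold higher over all clusters and 0 lower, where 5.68% of genes were higher and 2.5% lower. In the macrophage-marker cluster 0 of 6 were higher and 2 (Ccl2 and Ccl3) lower, where 3.41% of genes were higher and 2.6% lower. With deposited mean counts neither of the 2 reached 2-fold there. The neutrophil clusters had 1 of 5 (Ccr1) higher and 0 lower, where 5.31% of genes were higher and 4.52% lower. With size factors from the median of ratios Ccr1 fell short in both scopes, which left 2 of 7 and 0 of 5. Member medians were 0.22, −0.52 and 0.05 beside 0.14, 0.10 and 0.21 for all genes. The 3 comparisons share libraries and are not independent, and with 1 library per condition no test between conditions was made.

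**Figure D3:**
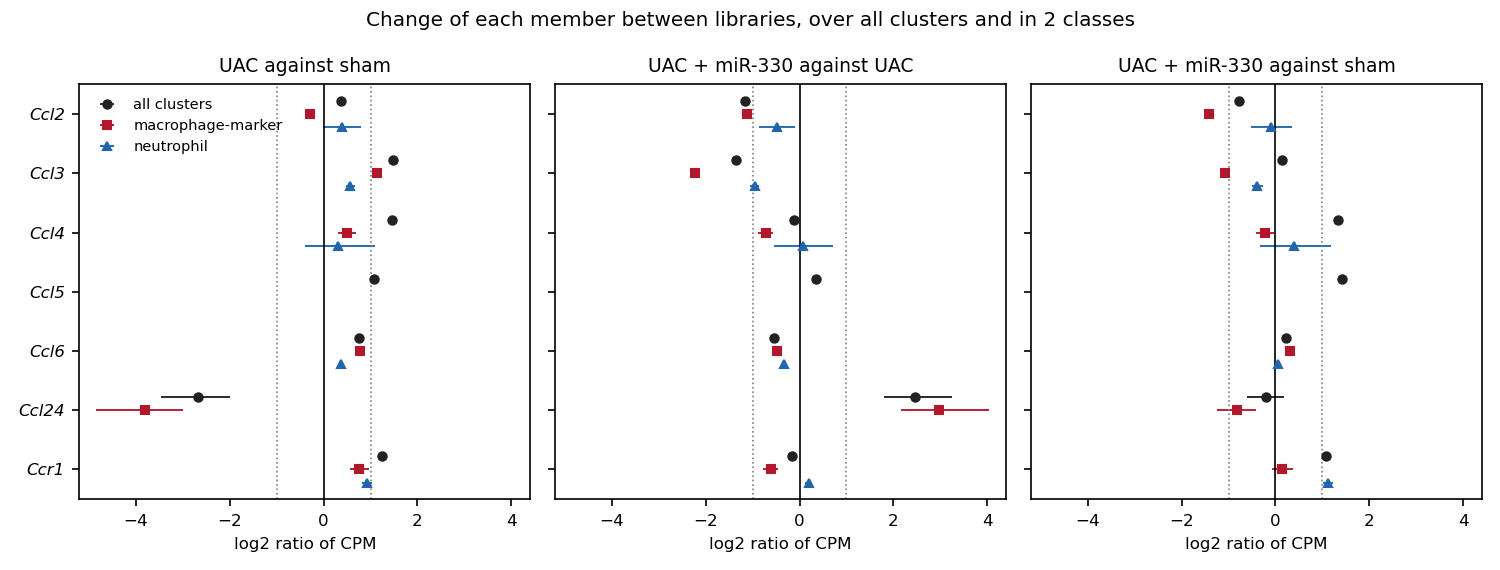
Log2 ratios of CPM of the members in 3 comparisons, over all clusters (circles), in the macrophage-marker cluster (squares) and in the neutrophil clusters (triangles), with exact 95% counting intervals. Dotted lines mark 2-fold, and members with under 50 UMIs in both libraries together are not drawn.

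Few other CC ligands had enough UMIs for a ratio. Of 14 on the list, 3 had enough UMIs for the step from sham to UAC and 0 passed 2-fold, where 2.41% of all genes were higher and 1.92% lower. Of 4 in the step to UAC + miR-330 1 was higher and 2 lower, where the shares of all genes were 2.41% and 0.932%. Ccl7, the neighbour of Ccl2 and likewise a monocyte attractant, was at 3.98, 6.76 and 2.83 CPM over all clusters and at 83.3, 100.4 and 42.8 in the macrophage-marker cluster. Ccl9 was at 27.5, 33.2 and 4.84 CPM in that cluster, a log2 ratio of −2.76 (−3.39 to −2.21) from UAC to UAC + miR-330. Both fell with miR-330 as Ccl2 and Ccl3 did. Ccl12, another monocyte attractant, had 1, 14 and 73 UMIs and so ran the other way, and 72 of the 73 lay in the macrophage-marker cluster. Ccl17, a ligand of Ccr4, was at 23.8, 18.8 and 14.5 CPM, highest in sham cluster 1 and in B cluster 2 of the other libraries.

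Other CC receptors and atypical receptors were read too. Ccr6, the receptor of Ccl20, was at 2.15, 6.21 and 8.70 CPM, and Ccr7, which guides cells to lymph nodes, at 2.81, 5.99 and 8.70. Both rose at each step and were highest in UAC cluster 14 and UAC + miR-330 cluster 8, whose dendritic name is weak. Ccr9 was at 0.167, 0.756 and 0.596 CPM. The atypical receptors Ackr3, a chondrocyte cluster gene here at 11.5, 9.50 and 7.21 CPM, and Ccrl2, at 8.01, 11.04 and 7.59, did not reach 2-fold.

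Signalling genes downstream of chemokine receptors were first compared between sham and UAC. Of 26 with enough UMIs 1 was at least 2-fold higher and 0 lower, where 2.41% of all genes were higher and 1.92% lower, with a median log2 ratio of 0.13 beside −0.02. It was Pik3r5, a subunit of the phosphoinositide kinase that G proteins activate, at 24.5, 49.7 and 55.9 CPM and highest in the macrophage-marker cluster of each library. The abundant Gnai2, an inhibitory G protein subunit, was at 582, 583 and 528 CPM, Rac2, a GTPase of leukocyte movement, at 470.5, 460.0 and 369.9, and Elmo1, a partner of Rac activation, at 203, 227 and 337. These 3 genes stayed within 2-fold in each comparison. Between the libraries with UAC 0 of 26 passed 2-fold over all clusters, where 2.41% of all genes were higher and 0.932% lower, with a median of 0.21 beside 0.13 for all genes. In the same step 2 of 25 were at least 2-fold higher in the macrophage-marker cluster and 3 of 24 in the neutrophil clusters, where 3.32% and 4.46% of all genes were, with medians of 0.20 and 0.42 beside 0.18 and 0.27. Rgs2 (12.0, 21.3 and 31.9 CPM) and Rgs18 (2.10, 3.33 and 5.69 CPM), which damp G protein signalling, were past 2-fold between sham and UAC + miR-330. In that comparison 4 of 26 were at least 2-fold higher and 0 lower, where 5.68% of all genes were higher and 2.5% lower, with a median of 0.46 beside 0.14 for all genes.

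Immediate early genes, which respond to tissue dissociation and to activation alike, were read beside the members. Over all clusters 0 of 16 passed 2-fold in any comparison, where 2.41%, 2.41% and 5.68% of all genes were higher and 1.92%, 0.932% and 2.5% lower, with medians of 0.24, −0.13 and 0.07 beside −0.02, 0.13 and 0.14 for all genes. Medians in the macrophage-marker cluster were −0.04, −0.05 and −0.28 beside −0.06, 0.18 and 0.10. Egr1 was at least 2-fold lower than in sham there, 1 of 14 in UAC and 1 of 15 in UAC + miR-330, where 3.1% and 2.6% of all genes were. The neutrophil clusters had medians of 0.52, −0.03 and 0.57 beside −0.04, 0.27 and 0.21, with 4 of 14 at least 2-fold higher from sham to UAC + miR-330, where 5.31% of all genes were. Single genes differed in the macrophage-marker cluster. Zfp36 (535, 627 and 354 CPM), Dusp1 (435, 592 and 360 CPM), Nr4a1 (591, 668 and 444 CPM), Ier2 (344, 372 and 290 CPM) and Junb (1203, 1268 and 791 CPM) had the same order of libraries as Ccl3, with each step under 2-fold. Fos (505, 471 and 601 CPM), Fosb (478, 296 and 476 CPM) and Jun (259, 163 and 218 CPM) were lowest in UAC. Egr1 (109, 25.4 and 42.4 CPM) and Atf3 (141, 129 and 168 CPM) were lowest in UAC too. What activation or dissociation adds to Ccl3 was not tested. Jund and Btg2, the other abundant genes of the list, were at 1014, 923 and 777 CPM and at 736, 916 and 1123 CPM in this cluster.

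Across the 52 clusters of the 3 libraries, the genes most like each member were found by Pearson correlation of log2 CPM among 8963 genes, as a description of clusters that share libraries and depth. Of the 21 genes named below, 4 were shared with Spearman correlation. Ccl2 was closest to Clec4a1 (0.86), Gpnmb (0.85) and Apoe (0.82), and Ccl24 to Cd300le (0.86), Mnda (0.83) and Tmem176a (0.83). Ccl6 was closest to Lilrb4 (0.96), Cxcl2 (0.94) and Sirpd (0.93), and Ccr1 to AABR07020463.1 (0.97), Fcgr2a (0.97) and Il1rn (0.97). Clec4a1, Fcgr2a and Il1rn among them are known from myeloid cells, and enrichment of such genes was not tested. Ccl3 was closest to Scimp (0.89), Itgb7 (0.85) and Bcl2a1 (0.85), Ccl4 to Cd7 (0.87), Nr4a3 (0.83) and Otulinl (0.82), and Ccl5 to AC109737.1 (0.81), Skap1 (0.69) and Ccl4 (0.65). Between members the highest values were 0.83 for Ccl6 and Ccr1 and 0.73 for Ccl3 and Ccl4, and the lowest was −0.10 for Ccl5 and Ccr1.

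Chromosome position separates the members in part. In assembly GRCr8 the order on chromosome 10 is Ccl5, Ccl9, Ccl6, Ccl3 and Ccl4, with Ccl2 beside Ccl7 and Ccl11 elsewhere on it. Ccl24 lies beside Ccl26 on chromosome 12 and Ccr1 before Ccr3 on chromosome 8. The neighbours Ccl5, Ccl6, Ccl3 and Ccl4 nevertheless did not all share a main source here. Ccl4 and Ccl5 had most UMIs in the T or NK cluster where one was named, and Ccl6 in neutrophil clusters. For Ccl3 the macrophage-marker cluster held the largest share in each library. Ccl2 and Ccl7, also neighbours, were both highest in the macrophage-marker cluster.

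Promoters of 4 members stand in the RefSeq table of assembly GRCr8, Ccl6, Ccl24, Ccr1 and Ccr2, as 250 bases before and 50 after the start. Those of Ccl6 and Ccr1 are shown because both genes were highest in a neutrophil cluster of each library. That of Ccl24 is shown because it alone of the ligands in the set fell from sham to UAC over all clusters. Both strands were searched for TATAAA (in 14.2% of all 33469 promoters), GAGGAA, a core read by the myeloid factor PU.1 (27.6%), TGANTCA, the AP-1 motif (7.33%), and GGGRNNYYCC, the NF-κB consensus (7.51%). Capitals mark matches. Ccl6 has TATAAA 32 bases before the start, Ccl24 has TATAAA 65 bases before it and GAGGAA 126 and, on the other strand, 167 bases before it, and Ccr1 has GAGGAA 245 bases before it. The 3 windows hold no TGANTCA and no GGGRNNYYCC, where R is A or G, Y is C or T and N any base, and a match is a description of letters only. They lie at chr10:68883317-68883616 (minus strand), chr12:26737173-26737472 (plus strand) and chr8:132439217-132439516 (minus strand).
Ccl6: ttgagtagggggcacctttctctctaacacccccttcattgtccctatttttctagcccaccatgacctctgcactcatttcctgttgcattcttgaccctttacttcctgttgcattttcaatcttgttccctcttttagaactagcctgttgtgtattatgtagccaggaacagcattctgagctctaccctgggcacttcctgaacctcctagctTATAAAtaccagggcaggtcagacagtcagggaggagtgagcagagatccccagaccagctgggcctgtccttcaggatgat
Ccl24: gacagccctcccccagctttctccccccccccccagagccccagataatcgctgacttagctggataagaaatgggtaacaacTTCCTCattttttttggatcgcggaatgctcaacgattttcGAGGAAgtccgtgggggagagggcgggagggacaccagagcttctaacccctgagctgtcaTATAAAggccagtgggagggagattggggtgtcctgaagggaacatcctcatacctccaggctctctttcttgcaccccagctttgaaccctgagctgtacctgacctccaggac
Ccr1: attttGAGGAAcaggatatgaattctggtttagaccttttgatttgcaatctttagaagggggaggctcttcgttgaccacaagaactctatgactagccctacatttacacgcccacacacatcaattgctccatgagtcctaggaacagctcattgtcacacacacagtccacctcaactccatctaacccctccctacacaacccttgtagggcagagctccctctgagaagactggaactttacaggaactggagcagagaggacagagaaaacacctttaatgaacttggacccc

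The mature strands of the microRNA given by AAV, from the RefSeq table, are shown with the seed, bases 2 to 8, in capitals, since the UAC + miR-330 library is defined by them. The 2 seeds differ, and target sites in the members were not searched.
rno-miR-330-5p: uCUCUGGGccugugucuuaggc
rno-miR-330-3p: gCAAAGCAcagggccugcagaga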

How the data were processed

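Single-cell RNA of cartilage and subchondral bone was measured in 3 pooled libraries, and 3 tables of clusters were used, 1 per library. The submitters' notes name Cell Ranger 7.0, STAR and Seurat 4.0.1 and the builds GRCh38 and mm10, while the identifiers are rat Ensembl genes, and the build behind the tables is not given in the sources used here. Per cluster, the deposited mean counts give a scaled signal proportional to the UMI counts of a gene. The deposited log2 fold changes and the deposited adjusted p-values compare a cluster with the other clusters of its library and were not used.

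Each mean was divided by the smallest positive mean of its column, which gave whole numbers for 100% of values within 1e-06, taken as UMIs. Identifiers with the same gene name were summed. Levels are UMIs per 1000000 (CPM) with exact Poisson 95% intervals, shares have exact binomial intervals, and ratios have exact conditional binomial intervals with 0.5 UMI added to each count for the log2 value. The libraries held 77668015, 92629658 and 97255383 UMIs, and the smallest clusters 1352666, 1796487 and 1691006, so 1 UMI is under 1 CPM in each cluster.

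Members and gene lists were chosen with earlier results of these data known, and the rule that counts enriched markers (at least 2-fold over the rest of the library with at least 10 UMIs) was settled after the tables were seen. All listed members are named, and genes of the other lists were named from the 3 with most UMIs and those at or past 2-fold over all clusters with at least 50 UMIs, at most 6 per list. Il1b and the immediate early genes other than Jund, Btg2 and Junb were named after their values were seen. Comparisons were UAC against sham, UAC + miR-330 against UAC and UAC + miR-330 against sham, without tests. Alternatives were the deposited mean counts, size factors from the median of ratios, other minimum counts, folds and added UMIs, genes or clusters left out, the most abundant identifier alone, naming by summed markers, and Spearman or log2(CPM + 10) for similar genes. The calculations were tested on simulated data. Python 3.11.15, numpy 2.4.6, scipy 1.17.1, pandas 2.3.3 and matplotlib 3.10.9 were used.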

Additional observations from a re-analysis of the deposited data

Results flagged for a closer look

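Ccl2 moved in opposite directions in 2 classes from UAC to UAC + miR-330, by a log2 ratio of 5.27 in the T or NK cluster and of −3.36 in the chondrocyte cluster. The difference between the 2 classes was 8.63, which made it stand out as a difference between groups, and the difference was not tested. The counts were 5 and 224 UMIs in the T or NK clusters and 161 and 15 in the chondrocyte clusters. The lower level of each pair, 2.28 and 2.55 CPM, was within the range of the B clusters of its library (1.65 to 5.01 and 0.727 to 2.96 CPM), so the size of the difference rests on background levels. Mast cell markers in the T or NK clusters summed to 32.0 and 2193 CPM, and neutrophil markers in the chondrocyte clusters to 4404 and 871 CPM. Macrophage markers in the chondrocyte clusters, given above, were nearly level. Ccl2 in the neutrophil clusters themselves was at 13.5 CPM in UAC and 9.68 in UAC + miR-330. The part of these marker sets in the Ccl2 levels was not tested.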

How the results depend on the processing

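No paired analysis was possible because each condition had 1 library, and no leave-one-out was possible for the same reason, so the changes have no replicate check. Of 312 alternative values of 54 member ratios 0 reversed a call, 95 lay outside the counting interval, and 9 ratios under 2-fold changed sign under a scaling. In 8 alternatives with at least 50 UMIs a ratio past 2-fold fell short of it. These were Ccl2 from UAC to UAC + miR-330 (−0.92 over all clusters, −0.89 in the macrophage-marker cluster), Ccl2 (−0.98) and Ccl3 (−0.65) from sham to UAC + miR-330 in that cluster, all with deposited mean counts, Ccl3 from UAC to UAC + miR-330 (−0.75) without that cluster, and Ccr1 from sham to UAC + miR-330 with size factors from the median of ratios (0.96 over all clusters, 0.88 in the neutrophil clusters) or without the neutrophil clusters and those with at least 3 early granulocyte markers enriched (0.64), UAC 13 and sham 14 among them. In 3 a ratio came to pass it, Ccl6 from sham to UAC without the same clusters (1.29), Ccr1 from sham to UAC in the neutrophil clusters with deposited mean counts (1.12) and Ccl3 from UAC to UAC + miR-330 there with the median of ratios (−1.20). Joining the neutrophil cluster led by Ifit1bl with those that have Retnlg among their leading genes, chosen after seeing the data, reversed the step from sham to UAC for Ccl6 (1.27 to −0.19) and Ccl2 (1.31 to −0.16, with an interval of −0.57 to 0.27 that leaves its direction unset). Among member ratios under 2-fold with at least 50 UMIs, Ccl6 changed sign from UAC to UAC + miR-330 (−0.53 to 0.06). From sham to UAC + miR-330 Ccl6 (0.74 to −0.13), Ccl3 (0.19 to −0.59) and Ccl2 (0.64 to −0.27) did so. Of 69 alternative counts of members past 2-fold 58 stayed within 1.5 times. The others were as follows, and the cause was not tested. With a fold of 1.5, 4 members in place of 2 changed from sham to UAC in the macrophage-marker cluster, 1 in place of 0 in the neutrophil clusters, and from UAC to UAC + miR-330 5 in place of 3 and 1 in place of 0. With a minimum of 200 UMIs, 1 in place of 2 changed from sham to UAC in the macrophage-marker cluster, and with a minimum of 10 UMIs, 2 in place of 1 from sham to UAC + miR-330 in the neutrophil clusters. With deposited mean counts, 1 in place of 0 changed from sham to UAC in the neutrophil clusters and 0 in place of 2 from sham to UAC + miR-330 in the macrophage-marker cluster. With size factors from the median of ratios, 1 in place of 0 changed from UAC to UAC + miR-330 and 0 in place of 1 from sham to UAC + miR-330, both in the neutrophil clusters. Without the macrophage-marker cluster, 1 in place of 3 changed from UAC to UAC + miR-330 over all clusters. Spearman correlation shared 4 of 21 similar genes and log2(CPM + 10) shared 16. Naming by summed markers kept the cluster of 17 of 19 named classes, all but the erythroid class of UAC (cluster 13 in place of 11, with Ccl2 at 233 in place of 1.89 CPM) and the dendritic class of UAC + miR-330 (14 in place of 8). All 364 levels were the same with the most abundant identifier alone. Ccl24, with 20 UMIs in UAC, is limited by depth.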
